A study of Ovis aries with 8 samples.

Results

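Creatine kinases and the genes that make and import creatine were examined in the perirenal fat of Callipyge and normal lambs. The genes were CKB, CKMT1, CKMT2, GATM, GAMT and SLC6A8, chosen as the enzymes of creatine synthesis, the creatine transporter and the creatine kinases outside CKM, and found by their symbols in the array's platform annotation. All 6 had a probe set, out of 9155 genes with a symbol of their own, and together they had 8 of 24016 bovine probe sets. CKMT2 and SLC6A8 had a pair of probe sets each. Of such a pair, the brighter by its mean over all arrays represented the gene and the other served as a check. The probe set used for CKMT1 carries the symbol CKMT1A in the annotation.

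Creatine is built from arginine and glycine. GATM, a mitochondrial amidinotransferase, makes guanidinoacetate from them, and GAMT then adds a methyl group from S-adenosylmethionine. SLC6A8 brings creatine from the blood into cells. Creatine kinases move phosphate between ATP and creatine, CKB in the cytosol and CKMT1 and CKMT2 in mitochondria, and in mice a cycle of creatine phosphorylation and hydrolysis in thermogenic fat has been linked to Ckb and to the phosphatase Alpl.

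The comparison was between 4 NmatCpat lambs, which inherited the Callipyge allele from the sire and a normal allele from the dam, and 4 NmatNpat lambs with normal alleles from both parents. All 8 were unweaned males of 12 weeks from a flock of crossed Dorset, Suffolk and Rambouillet sheep, and all carried a normal maternal allele. Fat around the kidney was sampled whole, and RNA of each lamb was hybridized to its own Affymetrix Bovine Genome array, whose short probes were designed on cattle sequence. The study asked whether the mutation, which enlarges some muscles, also alters expression in fat, and here that question was put to the creatine genes.

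Of 15 listed adipocyte markers 13 were measured, and 11 of them lay above the median level of all probe sets, FABP4, a fatty acid carrier, at 13.63 to 13.74 on the log2 scale. The hormones LEP, at 3.8 to 5.78, and RETN, at 3.18 to 6.23, had means below it. The array of NmatNpat animal 1 stood apart, where 184 probe sets exceeded their mean elsewhere by over 3 log2 units (20 to 54 did so on each of the remaining arrays). Its mean correlation with the other arrays was 0.897, the lowest of a range that reached 0.914. Values below are log2 intensities after quantile normalization, on which the median probe set read 5.99. A difference is the NmatCpat mean minus the NmatNpat mean, and its interval is the 95% interval from limma. P values weigh a difference against the spread between these lambs, which limma moderates with that of all probe sets. A two-sided exact permutation test of 4 lambs against 4 cannot give a p under 0.0286.

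None of the 6 genes passed the study's thresholds, a P value at or under 0.05 together with a fold change above 1.5 (called P and fold below). The P values here came from limma, while the study used another package, so the shares passing are not the study's own. In limma 3.93% of all probe sets passed (2.04% higher and 1.88% lower in NmatCpat). All 6 genes lay above the median level, and in a fit of the probe sets above it a smaller share passed. No creatine gene passed the P threshold alone, as 4.66% of all probe sets did. CKB, CKMT2 and GAMT had higher means in NmatCpat fat, and CKMT1, GATM and SLC6A8 had lower means. The median difference was 0.05, against 0.005 over all probe sets. P values ran between 0.178 and 0.642, no adjusted p was under 0.05 (0.0% of all probe sets had one), and the genotypes overlapped on all 8 probe sets, while 2.74% of all probe sets had no overlap. The intervals limited what could be seen: those of CKMT2, GATM and SLC6A8 stayed inside a 2-fold change in either direction, and none stayed inside 1.5-fold.

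**Figure D1:**
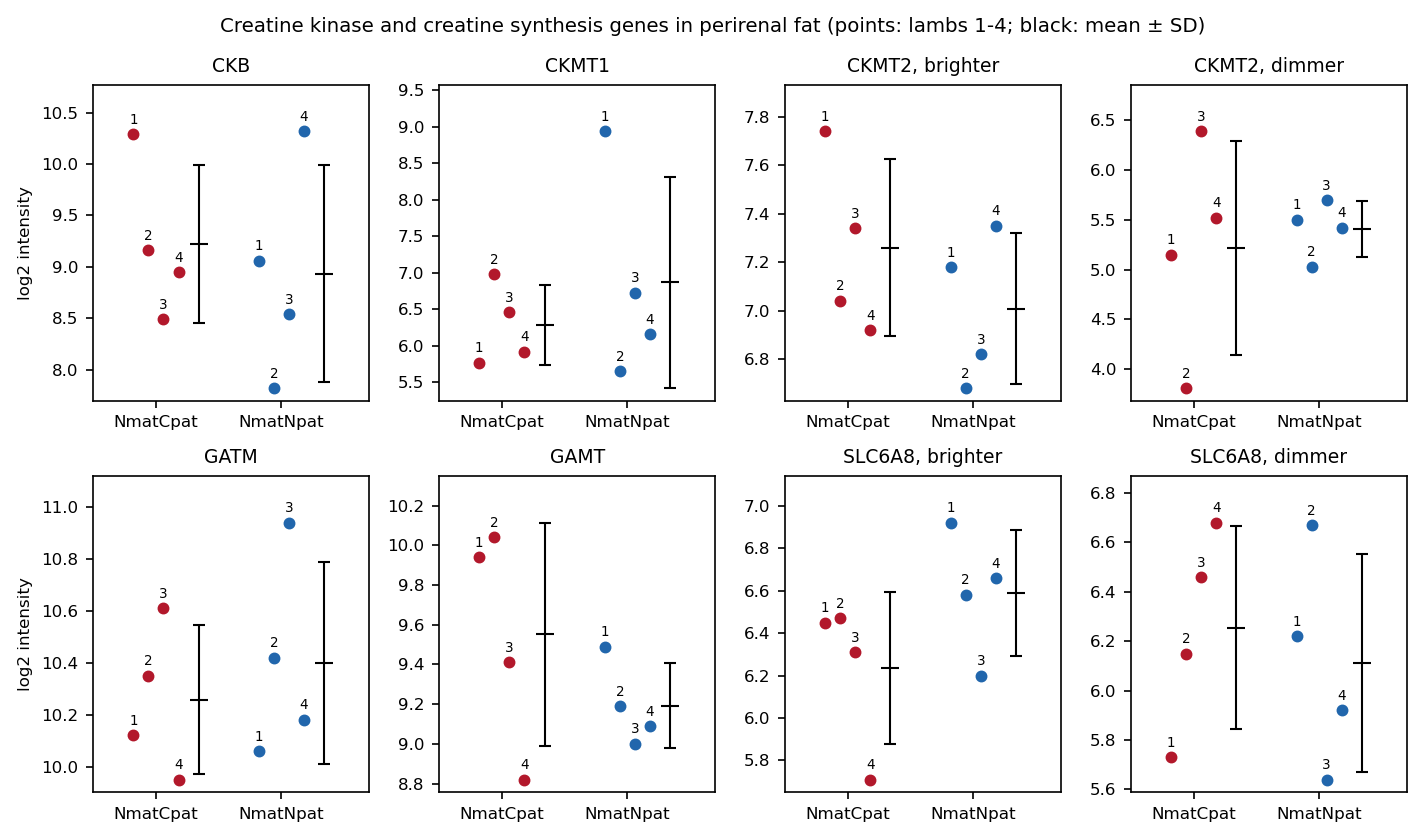
Log2 intensity (vertical axes, each on its own scale) of the 8 probe sets of the 6 creatine genes in NmatCpat lambs (red, left) and NmatNpat lambs (blue, right), with animal numbers beside the points and black bars for the mean ± SD (n = 4 each). The genotypes overlap in every panel, CKB is highest in NmatCpat animal 1 and NmatNpat animal 4, and CKMT1 is highest in NmatNpat animal 1.

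CKB, the cytosolic kinase best known from brain, was bright and varied widely among lambs of both genotypes. It read 10.29, 9.16, 8.49 and 8.95 in NmatCpat animals 1 to 4, against 9.06, 7.82, 8.54 and 10.32 in NmatNpat animals 1 to 4. NmatCpat animal 1 and NmatNpat animal 4 were high and NmatNpat animal 2 was low, so that each genotype held a high lamb and their ranges overlapped. In deposited units the highest reading was 1308.6 and the lowest 223.8. The means were 9.22 ± 0.766 in NmatCpat and 8.94 ± 1.06 in NmatNpat fat (SD, n = 4 each), a difference of 0.28 (interval -1.07 to 1.63, fold 1.22; limma P = 0.642, adjusted p = 0.988; two-sided exact permutation test, p = 0.7143). Its SD within a genotype, 0.922, was larger than that of 99.3% of the 6004 brightest probe sets, whose median SD was 0.233. The sign of the difference rested on single lambs, being -0.07 without NmatCpat animal 1, -0.09 without NmatNpat animal 2 and 0.74 without NmatNpat animal 4.

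The lambs with high CKB were also those with high smooth muscle transcripts. DES, which encodes the intermediate filament desmin of muscle cells, read 9.36, 8.26, 7.49 and 7.38 in NmatCpat lambs, against 8.18, 6.53, 7.06 and 9.15 in NmatNpat lambs. MYH11, the smooth muscle myosin heavy chain, read 11.53, 10.51, 9.70 and 8.46 in NmatCpat lambs, against 10.32, 8.30, 9.10 and 11.93 in NmatNpat lambs. Both genes were highest in NmatCpat animal 1 and NmatNpat animal 4, as CKB was. Of 7936 other probe sets with 1 symbol and a level above the median, DES had the highest correlation with CKB over the 8 lambs (r = 0.967, Spearman's rho = 0.90; r = 0.90 without NmatCpat animal 1 and NmatNpat animal 4, the lambs farthest from the CKB median). With the genotype means removed it was 0.97.

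All 6 smooth muscle markers were measured, and each was highest in NmatCpat animal 1 (TAGLN, CNN1 and DES) or in NmatNpat animal 4 (ACTA2, MYH11 and SMTN). Their correlations with CKB ran from 0.67 for ACTA2, the smooth muscle actin, to 0.97 for DES, with a median of 0.83, a value that 0.378% of the 7936 probe sets reached. The summed intensity of the list was 13744, 9081, 8858 and 5877 in NmatCpat lambs, against 5644, 4807, 5558 and 14599 in NmatNpat lambs. The list therefore varied within both genotypes and overlapped between them, its median difference was 0.35, and none of its genes passed P and fold. The next genes most like CKB were SMIM3, a small membrane protein (r = 0.936, rho = 0.88), and PTPRF, a receptor tyrosine phosphatase (r = 0.936, rho = 0.83). These correlations describe 8 lambs, and because the genes were picked for them no p is given. In whole tissue, more cells of a type and more RNA per cell cannot be told apart, and the part of smooth muscle in the CKB values was not tested.

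**Figure D2:**
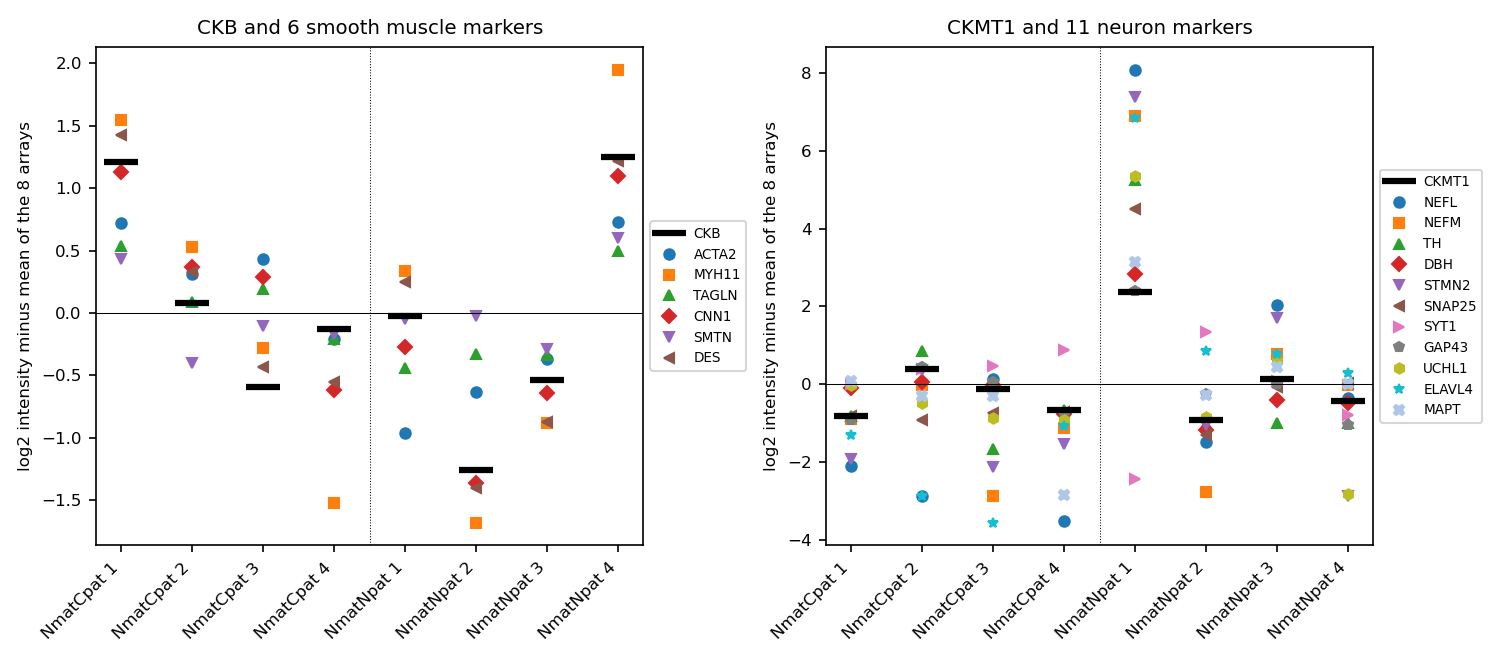
Log2 intensity minus the mean of the 8 arrays (vertical axes) in each lamb (horizontal axes, NmatCpat left of the dotted line and NmatNpat right of it), for CKB with the 6 smooth muscle markers and for CKMT1 with the 11 measured neuron markers (black bars, the creatine kinase; coloured symbols, the markers). CKB and the smooth muscle markers are high in NmatCpat animal 1 and NmatNpat animal 4, and CKMT1 and 10 of the 11 neuron markers are highest in NmatNpat animal 1.

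CKMT1, the ubiquitous mitochondrial creatine kinase, which hands phosphate from newly made ATP to creatine, had 1 outlying array. It read 5.77, 6.98, 6.46 and 5.92 in NmatCpat lambs, against 8.94, 5.65, 6.73 and 6.16 in NmatNpat lambs. The deposited intensities were 57.6, 124.3, 86.8 and 58.5 in NmatCpat lambs, against 487.3, 50.0, 107.5 and 68.9 in NmatNpat lambs. NmatNpat animal 1 was far above the other 7 lambs, among which the genotypes overlapped. The means were 6.28 ± 0.551 in NmatCpat and 6.87 ± 1.45 in NmatNpat fat (SD, n = 4 each), a difference of -0.59 (interval -2.18 to 1.0; limma P = 0.417, adjusted p = 0.983; two-sided exact permutation test, p = 0.6286). Without NmatNpat animal 1 the difference was 0.10.

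That array was also the highest for most neuron transcripts. Of 15 listed neuron markers 11 were measured, and 10 of the 11 were highest in NmatNpat animal 1. SYT1, a synaptic vesicle protein, was the exception and was highest in NmatNpat animal 2. The list summed to 421, 546, 413 and 329 in NmatCpat lambs, against 23848, 396, 766 and 377 in NmatNpat lambs. Of the other 7 arrays, that of NmatNpat animal 3 was the highest. Averaged over the measured markers, the log2 deviation from the mean of the 8 arrays was 4.57 in NmatNpat animal 1 and 0.46 in NmatNpat animal 3. It was -1.17 to -0.49 in the remaining lambs. Over the 8 lambs the correlations of these markers with CKMT1 ran from -0.82 for SYT1 to 0.94 for GAP43, a growth cone protein, and DBH, which makes noradrenaline, and 10 of 11 were positive. Without NmatNpat animal 1 they ran from -0.40 to 0.73. The genes most like CKMT1 were SH3D21 (r = 0.974, rho = 0.93), DPYSL2, a protein of axon growth (r = 0.969, rho = 0.93), and LGI1, a protein secreted by neurons (r = 0.961, rho = 0.86), and their r without the 2 lambs farthest from the CKMT1 median was 0.76, 0.74 and 0.88. The part of nerve tissue in the CKMT1 value was not tested.

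CKMT2, the mitochondrial creatine kinase of heart and skeletal muscle, varied little on its brighter probe set. It read 7.74, 7.04, 7.34 and 6.92 in NmatCpat lambs, against 7.18, 6.68, 6.82 and 7.35 in NmatNpat lambs. NmatCpat animal 1 was highest, and the other 7 lambs overlapped across genotypes. The means were 7.26 ± 0.367 in NmatCpat and 7.01 ± 0.310 in NmatNpat fat (SD, n = 4 each), a difference of 0.25 (interval -0.32 to 0.82, fold 1.19; limma P = 0.343, adjusted p = 0.983; two-sided exact permutation test, p = 0.3714). Its SD within a genotype, 0.340, was larger than that of 48.2% of probe sets of like brightness, so CKMT2 had an ordinary spread where CKB and CKMT1 had wide ones.

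The dimmer CKMT2 probe set ordered the lambs differently. It read 5.15, 3.81, 6.39 and 5.52 in NmatCpat lambs, against 5.50, 5.03, 5.70 and 5.42 in NmatNpat lambs, with NmatCpat animals on both ends of the range. Its difference was -0.20 (interval -1.35 to 0.96; two-sided exact permutation test, p = 0.7714), and its correlation with the brighter probe set was 0.15 (permutation p = 0.746, 3 genes compared in this way; rho = 0.02). The mean of both probe sets gave 0.03. Skeletal muscle markers, of which 14 of 19 were measured, correlated with the brighter CKMT2 probe set at -0.61 to 0.40, and 11 of the 14 were highest in NmatCpat animal 4, in which CKMT2 was lowest among the NmatCpat lambs. The genes most like CKMT2 were MPC1, a subunit of the mitochondrial pyruvate carrier (r = 0.976, rho = 0.95), DSTN, an actin-severing protein (r = 0.960, rho = 0.98), and SCARB1, a lipoprotein receptor (r = 0.946, rho = 0.86).

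GATM, which makes guanidinoacetate and so opens creatine synthesis, was bright in all lambs. It read 10.12, 10.35, 10.61 and 9.95 in NmatCpat lambs, against 10.06, 10.42, 10.94 and 10.18 in NmatNpat lambs. NmatCpat animal 3 and NmatNpat animal 3 were the highest lambs, and the genotypes overlapped. The means were 10.26 ± 0.289 in NmatCpat and 10.40 ± 0.389 in NmatNpat fat (SD, n = 4 each), a difference of -0.14 (interval -0.72 to 0.44, fold 0.907; limma P = 0.590, adjusted p = 0.984; two-sided exact permutation test, p = 0.5714). Without NmatNpat animal 3 it was 0.04. GATM is best known from kidney, which lay beside the sampled fat, and 9 of the 11 measured kidney markers read below the median level of all probe sets. The kidney list had sums between 476 and 698 in NmatCpat lambs and between 366 and 975 in NmatNpat lambs (366 to 618 without NmatNpat animal 1). Its genes correlated with GATM at -0.70 to 0.24 over the 8 lambs, and at -0.70 to 0.67 without NmatNpat animal 1, where FXYD2, a subunit that regulates the sodium pump, had the highest value. The part of kidney tissue in the GATM values was not tested.

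The identifier of the GATM probe set shares its sequence cluster number with 6 probe sets annotated to AHSG, a protein secreted by liver. Those 6 had means of 1.71 to 5.14, below the median level, and correlated with it at -0.76 to 0.25 over the 8 lambs. The brightest AHSG probe set has another cluster number. It lay above the median level, at 8.75 to 9.08, and correlated with GATM at 0.07. The annotation's symbol was kept. The genes most like GATM were VPS45, a factor of vesicle fusion (r = 0.955, rho = 0.95), ISLR, a membrane protein of mesenchymal cells (r = 0.949, rho = 0.90), and ACVR1, a receptor for bone morphogenetic proteins (r = 0.944, rho = 0.88).

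GAMT, which methylates guanidinoacetate to creatine, had the largest positive difference of the 6 genes. It read 9.94, 10.04, 9.41 and 8.82 in NmatCpat lambs, against 9.49, 9.19, 9.0 and 9.09 in NmatNpat lambs. NmatCpat animals 1 and 2 lay above all NmatNpat lambs and NmatCpat animal 4 lay below them all. The means were 9.55 ± 0.560 in NmatCpat and 9.19 ± 0.214 in NmatNpat fat (SD, n = 4 each), a difference of 0.36 (interval -0.32 to 1.04, fold 1.28; limma P = 0.259, adjusted p = 0.983; two-sided exact permutation test, p = 0.2857). NmatCpat animal 4 decided whether GAMT passed P and fold: without it the difference was 0.60 and past both thresholds (adjusted p = 0.996 from limma), and so was the 0.70 obtained without it and NmatNpat animal 1 (adjusted p = 1.0 from limma). The skeletal muscle list summed to 3937, 4444, 5791 and 6351 in NmatCpat lambs, against 5684, 5067, 4841 and 6921 in NmatNpat lambs. MYH7, at 11.25 to 12.31, was its brightest gene and weighs most in that sum. Averaged over the 14 measured markers, the log2 deviation from the mean of the 8 arrays ordered the lambs differently. That average was 1.37 in NmatCpat animal 4, -0.19 to 0.10 in the other NmatCpat lambs and -0.70 to 0.14 in NmatNpat lambs. The part of skeletal muscle in the GAMT values was not tested.

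The genes most like GAMT over the 8 lambs were SLC25A20, the mitochondrial carrier of acylcarnitines (r = 0.959, rho = 0.93), MRPL23, a protein of the mitochondrial ribosome (r = 0.954), and BOLA1, a mitochondrial protein (r = 0.954). SLC25A20 differed by 0.24 between the genotypes (adjusted p = 0.983 from limma).

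SLC6A8, the creatine transporter, lay a little above the median level on both probe sets. The brighter read 6.45, 6.47, 6.31 and 5.71 in NmatCpat lambs, against 6.92, 6.58, 6.20 and 6.66 in NmatNpat lambs. NmatCpat animal 4 was the lowest lamb and NmatNpat animal 1 the highest, the lambs in which 11 of 14 skeletal muscle markers and 10 of 11 neuron markers were highest. Their part in the SLC6A8 values was not tested. The means were 6.23 ± 0.358 in NmatCpat and 6.59 ± 0.296 in NmatNpat fat (SD, n = 4 each), a difference of -0.36 (interval -0.92 to 0.20, fold 0.780; limma P = 0.178, adjusted p = 0.983; two-sided exact permutation test, p = 0.1714). This was the smallest P of the 6 genes, and the difference was -0.25 without NmatNpat animal 1 and -0.07 without both of those lambs.

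The other SLC6A8 probe set pointed the other way. It read 5.73, 6.15, 6.46 and 6.68 in NmatCpat lambs, against 6.22, 6.67, 5.64 and 5.92 in NmatNpat lambs, a difference of 0.15 (interval -0.54 to 0.83; two-sided exact permutation test, p = 0.6000). The pair of probe sets correlated at -0.25 over the 8 lambs (permutation p = 0.578, rho = -0.07), and the mean of both gave -0.11. The genes most like the brighter probe set were METTL16, an RNA methyltransferase (r = 0.977), PAM, an enzyme that amidates peptides (r = 0.944), and OXR1, an oxidation resistance protein (r = 0.943).

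Few of the 6 genes varied together across lambs. Of their 15 pairs, only CKB and CKMT2 had a correlation with an unadjusted p under 0.05 (r = 0.79, permutation p = 0.0203, adjusted over the 15 pairs 0.304; rho = 0.71, permutation p = 0.0576, adjusted 0.864). Without NmatCpat animal 1 and NmatNpat animal 4, the lambs farthest from the CKB median, r was 0.49. Leaving out the extremes narrows the range and tends to lower r, so this cannot show how far the correlation rested on those lambs. With the genotype means removed the correlation was 0.80. It used the brighter CKMT2 probe set, which correlated with the dimmer one at 0.15. The dimmer one read 5.15 in NmatCpat animal 1 and 5.42 in NmatNpat animal 4. It was highest in NmatCpat animal 3, at 6.39, where CKB read 8.49. GAMT and SLC6A8, an enzyme of synthesis and the importer, correlated at 0.44 (permutation p = 0.281), and at 0.88 once each genotype's mean was removed. The 0.88 was the highest such value of the 15 pairs, was not tested and used the brighter SLC6A8 probe set. The dimmer one rose from 5.73 to 6.68 over NmatCpat animals 1 to 4, of which GAMT was lowest in animal 4. The lowest correlation was that of CKB and GATM, -0.50 (permutation p = 0.201). GATM and GAMT, the consecutive enzymes of synthesis, correlated at -0.12 (permutation p = 0.783).

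**Figure D3:**
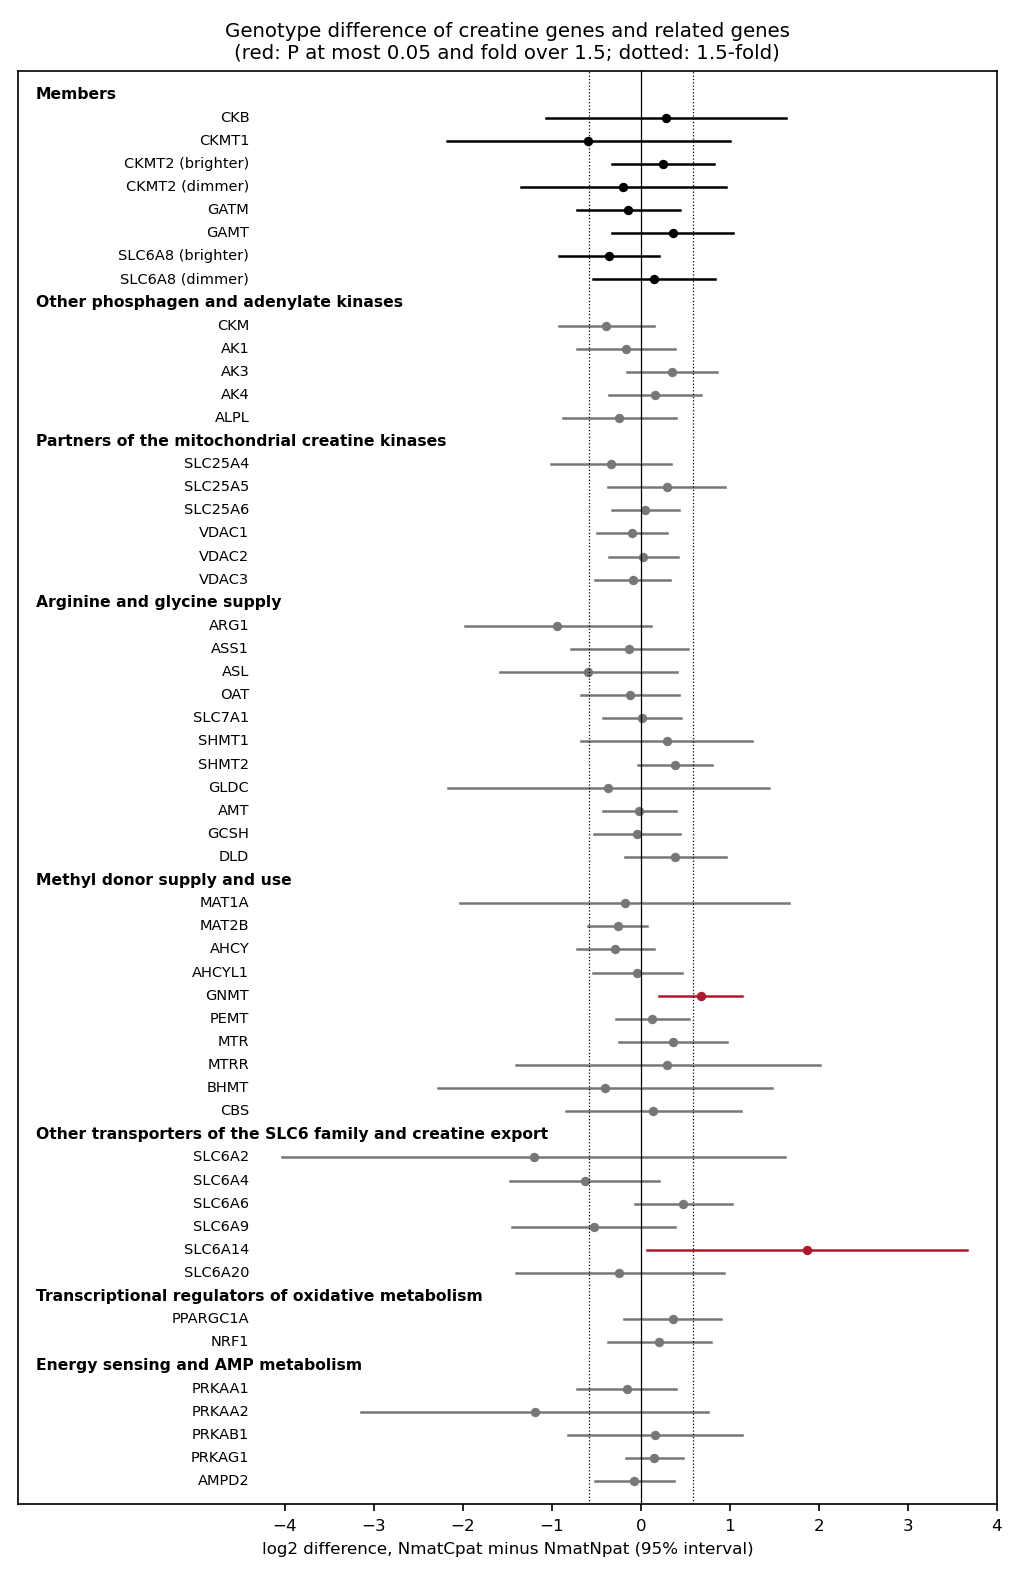
Log2 difference, NmatCpat minus NmatNpat (horizontal axis), with its 95% interval from limma for the 8 probe sets of the creatine genes (black) and for the 45 measured genes of 7 related lists, each by its brightest probe set. Red marks GNMT and SLC6A14, the genes past P and fold, and the dotted lines stand at 1.5-fold.

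Genes around the creatine pathway were read from 7 lists with 65 genes, of which 45 were measured. Of these, 20 had higher means in NmatCpat and 25 lower means, and their median difference was -0.04. GNMT and SLC6A14 passed P and fold, both higher in NmatCpat. These are 4.44% of the 45 genes, beside 3.93% of all probe sets, and none passed at an adjusted p under 0.05 (smallest 0.983 from limma). The genotypes did not overlap for 3 of the 45, GNMT, MAT2B and PRKAG1, beside 2.74% of all probe sets.

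Among the suppliers and users of methyl groups, which feed the GAMT reaction, 10 of 13 genes were measured. GNMT, the glycine methyltransferase that competes for S-adenosylmethionine, read 6.25, 6.35, 6.5 and 6.57 in NmatCpat lambs, against 5.90, 5.61, 5.37 and 6.08 in NmatNpat lambs. All NmatCpat lambs lay above all NmatNpat lambs, and the difference was 0.68 (interval 0.21 to 1.14; limma P = 0.00991, adjusted p = 0.983; two-sided exact permutation test, p = 0.0286, the smallest possible). The dimmer GNMT probe set differed by -0.74, the mean of both by -0.03, and without NmatNpat animal 3 the brighter one missed the fold threshold at 0.55. MAT2B, a regulatory subunit of the enzyme that makes S-adenosylmethionine, differed by -0.26 (adjusted p = 0.983 from limma), and the other 8 genes did not pass.

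In arginine and glycine supply, none of 11 measured genes of 12 passed P and fold. SHMT2, which makes glycine from serine in mitochondria, had the smallest P of them, at 8.06 ± 0.220 in NmatCpat and 7.67 ± 0.168 in NmatNpat fat (SD, n = 4 each; difference 0.39, limma P = 0.0645, adjusted p = 0.983; two-sided exact permutation test, p = 0.0571). ARG1, the arginase of the urea cycle, differed by -0.94, a fold change past 1.5 with a P that missed its threshold (adjusted p = 0.983 from limma). Its mean, 5.19, lay below the median level, and its other probe set differed by -0.26.

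Of the other SLC6 transporters, which include carriers of taurine, glycine and noradrenaline, 6 of 10 listed genes were measured and 5 of the 6 lay below the median level. SLC6A14, an amino acid transporter, read 4.17, 4.19, 3.92 and 4.0 in NmatCpat lambs, against 0.15, 4.24, 1.55 and 2.85 in NmatNpat lambs. NmatNpat animal 2 was as high as the NmatCpat lambs and the others scattered far below, so the genotypes overlapped. Its difference was 1.87 (interval 0.07 to 3.67; limma P = 0.0433, adjusted p = 0.983; two-sided exact permutation test, p = 0.1429). The call was lost when any of 6 lambs, all but NmatNpat animals 2 and 4, was left out, and the difference was 1.19 without NmatNpat animal 1. It was also lost without moderated variances and once an offset of 16 was added to the signal, which brought the difference to 0.54. The low NmatNpat readings lay far under the median level, where a small change in signal makes a large one on the log2 scale.

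CKM, the cytosolic creatine kinase of muscle, led the list of other phosphagen and adenylate kinases by its P. It read 9.65, 9.63, 10.22 and 9.22 in NmatCpat lambs, against 10.10, 9.95, 9.97 and 10.25 in NmatNpat lambs, a difference of -0.39 (interval -0.92 to 0.15; limma P = 0.132, adjusted p = 0.983; two-sided exact permutation test, p = 0.1143). Its dimmer probe set read 6.28, 6.19, 5.97 and 7.47 in NmatCpat lambs, against 6.04, 6.31, 5.93 and 3.04 in NmatNpat lambs. The pair ran in opposite orders (r = -0.70, permutation p = 0.0658; rho = -0.83, permutation p = 0.0154), and the mean of both gave 0.38 in place of -0.39. ALPL, the phosphatase of the creatine cycle in mice, read 5.78 in NmatCpat and 6.02 in NmatNpat fat on its brightest probe set, a difference of -0.24 (adjusted p = 0.983 from limma).

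The partners of the mitochondrial kinases, the adenine nucleotide carriers and the porins, were all measured, and all 6 lay above the median level. SLC25A4, the carrier of heart and muscle, had the smallest P of them, at 10.55 ± 0.283 in NmatCpat and 10.89 ± 0.521 in NmatNpat fat (SD, n = 4 each; difference -0.33, adjusted p = 0.983 from limma). PPARGC1A, a coactivator of mitochondrial genes, differed by 0.36 (adjusted p = 0.983 from limma) on its brightest probe set and by 0.17, -0.09 and -0.62 on the rest. PRKAA2, a catalytic subunit of the energy sensor AMPK, was dim and differed by -1.19 (interval -3.14 to 0.76; adjusted p = 0.983 from limma). Without NmatCpat animal 4 it differed by -1.83 and passed P and fold (adjusted p = 0.996 from limma).

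CKB lies on sheep chromosome 18, as do the Callipyge mutation and DLK1, the imprinted gene next to it, with 29 protein-coding genes between CKB and DLK1 in the sheep annotation. Of the 12 genes nearest to CKB, 6 on either side, 6 were measured and none passed P and fold. TRMT61A, a transfer RNA methyltransferase beside CKB, differed by 0.63 (interval -0.34 to 1.59), BAG5, a co-chaperone, by 0.52 (interval -0.68 to 1.72) and XRCC3, a DNA repair protein, by 0.46 (interval -0.12 to 1.04), each at an adjusted p of 0.983 from limma. TRMT61A and BAG5 lay below the median level, with means of 5.77 and 5.33. TRMT61A read 4.19 in NmatNpat animal 2 and 5.69 to 6.15 in the other NmatNpat lambs. EIF5, a translation factor, differed by -0.22, KLC1, a kinesin light chain, by -0.18 and ZFYVE21 by -0.07. CKMT2 and GAMT lie on chromosome 5, GATM on chromosome 7 and SLC6A8 on the X chromosome.

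**Figure D4:**
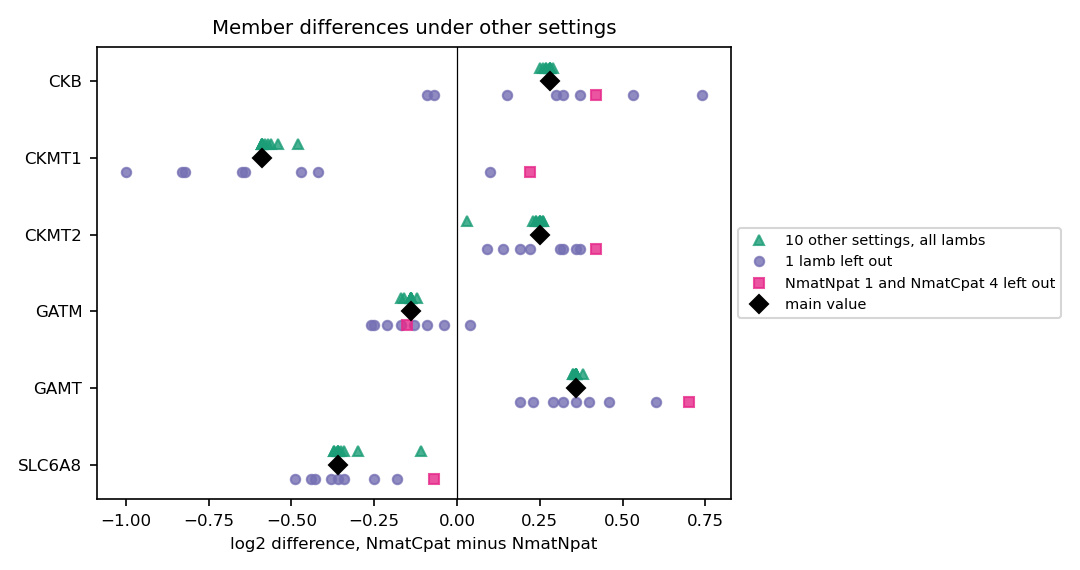
Log2 difference, NmatCpat minus NmatNpat (horizontal axis), of the 6 creatine genes (rows) as reported (diamonds), under 10 other settings on all lambs (triangles), with 1 lamb left out (circles) and without NmatNpat animal 1 and NmatCpat animal 4 (squares). Other settings move the values little except for the mean of all probe sets, at 0.03 for CKMT2 and -0.11 for SLC6A8. Some of those settings refit the same values and cannot move a difference. Leaving out lambs turns the sign of CKB, CKMT1 and GATM.

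How the values depended on the fit was examined with 19 alternatives, which gave 114 differences for the 6 genes. Of these, 109 kept the direction of the reported value and 5 did not, all of them with at least 1 lamb left out. The 109 include differences that could not change. The filter on dim probe sets, the other variance models and the animal number block refit the same values. The mean over probe sets is also fixed for a gene with 1 probe set. The smallest adjusted p over all 114 was 0.912, from limma.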

How the data were processed

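Total RNA from perirenal fat of 8 lambs was hybridized to 1 Affymetrix array each. The authors processed the images with MAS5 (version: not given in the sources used here). The deposited intensity values are linear, 24128 per array with a lowest value of 0.1. The methods describe quantile normalization, but the deposited columns differ in their quantiles, so log2 values were quantile-normalized here. No arrays shared over 0.34% of their values, and every column was used. After removal of 112 controls, 24016 probe sets entered a limma fit (version 3.58.1, R 4.3.3) with genotype as the only term and Benjamini-Hochberg adjustment. Exact permutation tests used all 70 arrangements of the lambs, and permutation tests of correlations all 40320 pairings. The labels give no batch or scan date, and the number of arrays limits the precision. The scripts were tested on simulated data.

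Symbols came from the platform annotation, which is old, and chromosomes and neighbours from sheep assembly ARS-UI_Ramb_v3.0, whose table did not name CKMT1. The creatine genes, the lists and the tests were chosen with earlier results of these data known. Named were all probe sets of the 6 genes, in each related list the gene with the smallest p and any past P and fold, in each cell type list the 2 brightest and any past P and fold, and the 3 genes with the highest r with each creatine gene; other genes named were chosen after their values were seen. Alternatives were other normalizations (median centring, cyclic loess, none), an offset of 16, a filter on dim probe sets, other variance models, array weights, animal number as a block, lambs left out, and a gene's mean over its probe sets.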

Additional observations from a re-analysis of the deposited data

How the results depend on the processing

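CKMT2, GAMT and SLC6A8 kept their direction in all 19 alternatives, some of which could not change it by construction. With 1 lamb left out, the differences ran from -0.09 to 0.74 for CKB (-0.07 without NmatCpat animal 1 and -0.09 without NmatNpat animal 2), -1.0 to 0.10 for CKMT1 (0.10 without NmatNpat animal 1), 0.09 to 0.37 for CKMT2, -0.26 to 0.04 for GATM (0.04 without NmatNpat animal 3), 0.19 to 0.60 for GAMT (0.60 without NmatCpat animal 4) and -0.49 to -0.18 for SLC6A8. Without NmatNpat animal 1 and NmatCpat animal 4, CKMT1 was 0.22 and GAMT 0.70. The number of creatine genes past P and fold was 0, and 1, GAMT, without those 2 lambs or without NmatCpat animal 4 alone (range 0 to 1). The number at an adjusted p under 0.05 was 0 in every alternative. Of the related genes 2 passed, against 0 with the offset, 1 above the median level only, without moderated variances, without those 2 lambs or with the mean of all probe sets, and 0 to 3 with 1 lamb left out (0 without NmatNpat animal 3, 1 without NmatNpat animal 1 or NmatCpat animal 1 or 3, 3 without NmatNpat animal 2). Over all probe sets 943 passed, against 244 above the median level, where fewer were tested and a smaller share of them passed, and 626 without moderated variances. The mean of all probe sets turned CKM to 0.38, GNMT to -0.03 and PPARGC1A to -0.04. Other causes were not tested.

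The deviations of same-numbered lambs correlated at -0.0131 to 0.048, and those of lambs with different numbers at -0.0584 to 0.0155. Correlations this small cannot tell whether the animal numbers pair the lambs. With animal number as a block the differences were the same by construction (0.28 for CKB, -0.59 for CKMT1, 0.25 for CKMT2, -0.14 for GATM, 0.36 for GAMT and -0.36 for SLC6A8), and 0 creatine genes, 3 related genes and 1124 probe sets passed.

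With 8 arrays, the 95% interval of the median probe set reached 0.74 log2 units to either side, and dim probe sets were noisier: the median SD within a genotype was 1.07 for the 6004 dimmest and 0.233 for the 6004 brightest.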

Other observations

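Adipocyte genes had sums between 53161 and 59958 in NmatCpat lambs and between 54497 and 56609 in NmatNpat lambs, and 2 of the 13 measured lay below the median level. FABP4 averaged 13.72 ± 0.0288 in NmatCpat and 13.69 ± 0.0415 in NmatNpat fat, and CD36, a fatty acid transporter, 13.80 ± 0.106 in NmatCpat and 13.71 ± 0.104 in NmatNpat fat (SD, n = 4 each). Of the brown and beige fat genes 5 of 9 were measured. CIDEA, a lipid droplet protein, averaged 9.33 in NmatCpat and 9.62 in NmatNpat fat, and COX8B, a cytochrome oxidase subunit, 8.62 in NmatCpat and 8.64 in NmatNpat fat. The other 3 were higher in NmatCpat, and none of the 5 passed P and fold. COX7A1 differed by 0.46 without overlap of the genotypes (limma P = 0.0654, adjusted p = 0.983; two-sided exact permutation test, p = 0.0286), and 2.74% of all probe sets had no overlap. UCP1, the uncoupling protein, differed by 0.66 (interval -0.66 to 1.98) and CPT1B by 0.85 (interval -1.55 to 3.26), both with means below the median level.

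Smooth muscle ACTA2 averaged 11.93 ± 0.388 in NmatCpat and 11.31 ± 0.734 in NmatNpat fat, and TAGLN, an actin-binding protein, 11.37 ± 0.310 in NmatCpat and 11.07 ± 0.440 in NmatNpat fat (SD, n = 4 each). In the neuron list SNAP25, a synaptic protein, averaged 5.79 in NmatCpat and 7.38 in NmatNpat fat (6.14 without NmatNpat animal 1), and UCHL1, a neuronal ubiquitin hydrolase, 5.88 in NmatCpat and 7.02 in NmatNpat fat (5.43 without that animal, which turns the difference to 0.45). ELAVL4, an RNA-binding protein of neurons, was lower in NmatCpat, at 0.86 ± 1.21 against 5.25 ± 3.11 in NmatNpat fat (SD, n = 4 each; difference -4.39, limma P = 0.0173, adjusted p = 0.983; two-sided exact permutation test, p = 0.0286), a direction and thresholds that 1.88% of all probe sets shared. It read 1.76, 0.18, -0.50 and 2.0 in NmatCpat lambs, against 9.89, 3.93, 3.83 and 3.33 in NmatNpat lambs, and the difference was -2.84 without NmatNpat animal 1. All readings but that of NmatNpat animal 1 were under the median level, so the size of either difference depends on dim signal.

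Skeletal muscle genes were higher in NmatCpat for 11 of the 14 measured, none past P and fold, with 10 of 14 below the median level and MYH7, the slow myosin heavy chain, at 11.64 in NmatCpat and 11.95 in NmatNpat fat. Of the kidney genes, SLC22A6 averaged 6.18 in NmatCpat and 6.23 in NmatNpat fat, and FXYD2 5.67 in NmatCpat and 6.67 in NmatNpat fat. Without NmatNpat animal 1 their differences were 0.29 in place of -0.05 for SLC22A6 and -0.65 in place of -1.01 for FXYD2. Liver genes, 10 of 11 measured and 7 of them below the median level, had sums between 2512 and 6427 in NmatCpat lambs and between 2319 and 3266 in NmatNpat lambs, with HP, haptoglobin, at 8.91 to 12.24 over the 8 lambs and ALB, albumin, at 9.78 in NmatCpat and 9.87 in NmatNpat fat. Of the adrenal cortex genes, 7 of 9 measured and 6 below the median level, STAR averaged 5.38 in NmatCpat and 5.31 in NmatNpat fat (5.01 without NmatNpat animal 1) and NR5A1 7.36 in NmatCpat and 6.94 in NmatNpat fat. Schwann cell S100B averaged 11.24 in NmatCpat and 11.30 in NmatNpat fat and MBP 6.14 in NmatCpat and 6.25 in NmatNpat fat (5.89 without NmatNpat animal 1). SOX10, the last of the 3 measured, was below the median level and lower in NmatCpat, at 5.28 against 5.79 in NmatNpat fat. It differed by -0.51 (interval -0.91 to -0.12; limma P = 0.0177, adjusted p = 0.983; two-sided exact permutation test, p = 0.0286). Its genotypes did not overlap, as for 2.74% of all probe sets, and it missed the fold threshold.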
